A study of Drosophila melanogaster with 8 samples.

Results

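The X chromosome regions described here are stretches of ovarian DNA enriched by an antibody to N6-methyladenine (6mA) in control flies. Peaks of 4 immunoprecipitated libraries were merged wherever they shared at least 1 bp. A merged region was kept when it lay on X and held a peak of at least 1 of the 2 control libraries. This gave 1020 regions, out of 2059 merged regions on X and 7001 in the whole series. The regions were thus selected on the control peak calls, so their control values are a description and carry no test.

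The study compared ovaries of Drosophila melanogaster that expressed a UASp-Sam-S transgene under nanos-gal4, a driver active in the germline, with control ovaries. The 6mA antibody was that of Synaptic Systems, and each genotype had 2 immunoprecipitated libraries, 1 in batch 1 and 1 in batch 2, each called against an input of its own. The libraries are named Sam-S 1, Sam-S 2, control 1 and control 2, where the number is both the replicate and the batch. The genotype of the control flies beyond the word control, the age of the flies and the number of animals are not given in the sources used here. An ovary holds somatic follicle cells beside the germline, so a mark in more cells and more of the mark per cell cannot be told apart. DNA libraries carry no expression markers, so the tissue label was not checked.

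6mA is adenine with a methyl group on its N6 atom. In flies it has been reported at low levels in embryos and ovaries, and the Tet protein has been described as the enzyme that removes it. Sam-S makes S-adenosylmethionine, the methyl donor of most methylation reactions. Immunoprecipitation ranks stretches of DNA by antibody binding and does not count methylated bases. Females carry X in the same number of copies as the autosomes, and the dosage compensation complex, which raises X transcription in males, does not act in them.

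The immunoprecipitated libraries held between 39591292 and 49800736 tags. The X held 1297 peaks in Sam-S 1, 1654 in Sam-S 2, 1025 in control 1 and 215 in control 2. Control 2 stood apart with its short list, and it decided how many regions rested on both controls. Of the 1020 regions, 1014 held a peak in control 1 and 205 in control 2, and 199 held both. The description "present in control ovaries" therefore rested on control 1 without control 2 at 815 regions (79.9%). With control 2 as the only control list, the same rule gave 205 regions. Coordinates below are those of the authors' lists, whose genome build is not given in the sources used here, and gene names come from overlap with a RefSeq gene table.

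Most of these regions were also called when Sam-S was overexpressed. Peaks of Sam-S 1 lay in 784 of the 1020 regions (76.9%, 95% Wilson interval 74.2 to 79.3%) and peaks of Sam-S 2 in 833 (81.7%, 79.2 to 83.9%). Over all regions of the series with a control peak these shares were 73.3% for Sam-S 1 and 80.8% for Sam-S 2. Both Sam-S libraries held a peak at 710 of the X regions (69.6%), beside 66.4% of all regions with a control peak. At least 1 Sam-S library held a peak at 907 (88.9%). The intervals cover counting error only, and regions of a library are not replicates.

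Regions with a control peak on 2L, 2R, 3L and 3R, called autosomal from here on, gave nearly the same shares. Sam-S 1 had a peak at 78.7% of 2091 such regions, and Sam-S 2 at 82.4%. The X share was lower than the autosomal share by 1.27 percentage points as a mean over the Sam-S libraries (values of -1.86 and -0.69, SD 0.83, n = 2). An exact sign-flip test over 2 libraries can give no p below 0.5, and the difference changed sign under other settings, as given in the closing section. The off-arm sequences, such as unplaced scaffolds, are part of the series-wide shares and not of the autosomal ones.

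The chance of a Sam-S peak went with the strength of the control 1 peak. Strength is given as fold enrichment, the authors' ratio of stacked tags at the summit to the local input background. The 1014 X regions with a control 1 peak were ranked by that fold and divided into 5 classes, equal in size to within 1 region. In the lowest class, with folds between 1.29 and 1.70, 54.7% had a peak in Sam-S 1, 56.7% in Sam-S 2 and 7.39% in control 2. In the highest class, with folds between 2.22 and 3.85, these shares were 95.5%, 99.0% and 50.5%. Even in its strongest class control 1 was thus matched by control 2 at fewer regions than by either Sam-S library. The autosomal regions, ranked by control 1 fold in the same way, gave a similar rise. Their lowest class had shares of 51.6% in Sam-S 1, 57.6% in Sam-S 2 and 4.08% in control 2. Their highest class had 97.8%, 99.5% and 47.8%, so the rise was not particular to X.

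**Figure D1:**
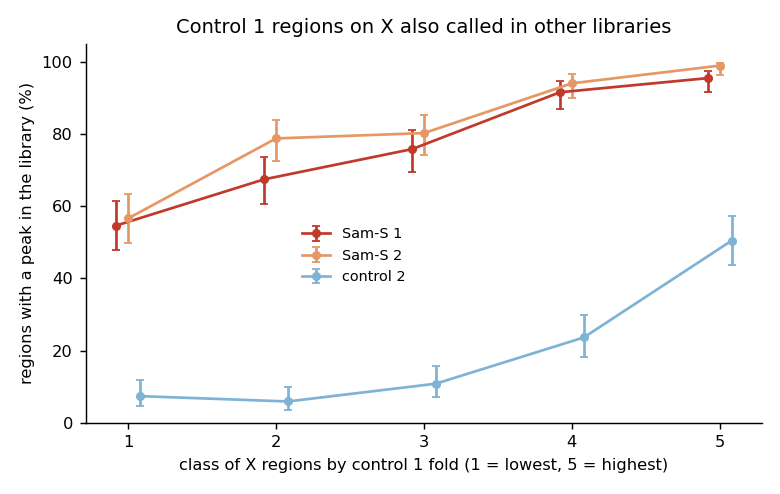
Share of X regions (%, y axis) with a peak in Sam-S 1, Sam-S 2 or control 2, by class of control 1 fold enrichment (x axis, 5 classes, 1 the lowest); bars are 95% Wilson intervals. All 3 libraries have their highest share in the top class, where control 2 reaches 50.5% and Sam-S 2 reaches 99.0%.

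The 111 regions with a control 1 peak and no Sam-S peak were weak. Their control 1 fold had a median of 1.69 and a highest value of 2.26, and their median width was 227 bp. The 707 regions with a control 1 peak and peaks in both Sam-S libraries had a median control 1 fold of 2.04 and a median width of 350 bp. A region's width spans the peaks of all libraries merged into it, so regions called in more libraries are wider through the merging. The X peaks of control 1, taken singly, had a median width of 259 bp. No control 2 peak lay in any of the 111. The 211 autosomal regions with a control 1 peak and no Sam-S peak were alike. Their median control 1 fold was 1.65, their median width 217 bp, and 1 held a control 2 peak. With either control counted, 11.1% of the X regions and 10.2% of the autosomal regions had no Sam-S peak. The strongest of the 111 was X 11085256 to 11085473, within sev, the gene of the Sevenless receptor kinase, with a control 1 fold of 2.26. The next were X 10174858 to 10175120, overlapping asRNA:CR44894 and CG43902, at 2.25, and X 3791682 to 3791969, within HIP-R, at 2.21. These 3 were picked after their values were seen.

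At the entry threshold, a q of 0.05, the least significant members were just above it. The lowest −log10 q among the regions, by the higher of the control values, was 1.33 at X 17886325 to 17886597, within mnb, which encodes the Minibrain kinase, with a control 1 fold of 1.35 and no other peak. Next came X 8502599 to 8503018 in CG33181 (−log10 q of 1.37, control 1 fold of 1.29) and X 93554 to 93791, outside any gene (1.40 and 1.30). Regions just outside have no control value, since the lists hold only what was called. The 1039 X regions with Sam-S peaks alone had median folds of 1.82 (Sam-S 1) and 1.90 (Sam-S 2), while the regions with a control peak had 2.12 and 2.23 in these libraries.

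Fold enrichment over input was modest in every library. Across the X regions with a peak in the library, the fold ran from 1.30 to 4.10 with a median of 2.12 in Sam-S 1, and from 1.28 to 4.42 with a median of 2.23 in Sam-S 2. It ran from 1.29 to 3.85 with a median of 1.93 in control 1, and from 1.24 to 2.92 with a median of 1.77 in control 2. A fold of at least 2 was listed at 488 regions (62.2%) in Sam-S 1, 590 (70.8%) in Sam-S 2, 423 (41.7%) in control 1 and 36 (17.6%) in control 2. A fold of 3 was reached at 23 regions (2.93%) in Sam-S 1 and at 65 (7.80%) in Sam-S 2. Control 1 reached it at 7 regions (0.69%) and control 2 at 0 of 205. The autosomal shares with a fold of at least 2 were 57.8% in Sam-S 1, 67.2% in Sam-S 2, 33.8% in control 1 and 15.2% in control 2. For a fold of 3 they were 1.58%, 4.12%, 0.48% and 0.55% in the same order. Higher shares in the Sam-S libraries were thus not particular to X. The lists hold different regions, so these medians are not over the same set.

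At 190 X regions all 4 libraries held a peak. Their median folds were 2.48 and 2.53 in Sam-S 1 and Sam-S 2, against 2.28 and 1.79 in control 1 and control 2. The Sam-S medians averaged 2.50 ± 0.0325 and the control medians 2.03 ± 0.345 (SD, n = 2 each). On the log2 scale Sam-S minus control was 0.31, made of 0.12 within batch 1 and 0.50 within batch 2. At these regions the difference was 0.14 when control 2 was left out. Both Sam-S folds lay above both control folds at 126 of the 190 regions (66.3%), where 65.3% of the 565 regions of the series called in all libraries did so. Both lay below both at 0 of the 190, a count for which no share over the series was computed. Control 2 exceeded control 1 at only 5 of the 190. For nearly all regions both Sam-S folds would thus have had to fall below control 2.

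**Figure D2:**
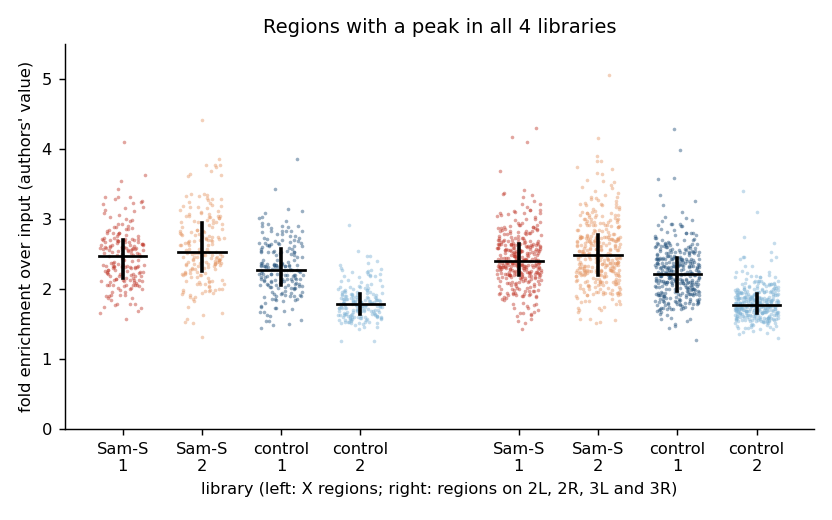
Fold enrichment over input (y axis, authors' value) at each region with a peak in all 4 libraries, for 190 X regions (left) and 340 autosomal regions (right); points are regions, the wide bar is the median and the upright bar spans the quartiles. Control 2 has the lowest median on both sides, 1.79 on X and 1.78 on the autosomes.

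The autosomal regions called in all libraries showed the same ordering, with median folds of 2.40 in Sam-S 1, 2.49 in Sam-S 2, 2.22 in control 1 and 1.78 in control 2. Region by region on X, Sam-S over control had a median log2 ratio of 0.11 in batch 1 and 0.51 in batch 2. On the autosomes these ratios were 0.10 and 0.48. Sam-S exceeded control within each batch at 143 of the 190 X regions (75.3%), and at 74.3% of the 565. Over the larger set of X regions with a peak in both libraries of a batch, Sam-S 1 exceeded control 1 at 570 of 781 (73.0%, beside 72.7% in the series). In batch 2, Sam-S 2 exceeded control 2 at 192 of 199 (96.5%, beside 93.3%). The rule used control peaks, so nothing is read from these counts beyond their values.

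Whether Sam-S shifted X peaks relative to autosomal peaks was tested on a quantity that does not use the choice of regions. For every library the median fold of all its X peaks was divided by that of all its autosomal peaks. In Sam-S 1 the median fold was 1.97 on X and 1.93 on the autosomes, and in Sam-S 2 it was 2.02 on X and 1.98 on the autosomes. In control 1 it was 1.93 on X and 1.89 on the autosomes, and in control 2 it was 1.77 on X and 1.76 on the autosomes. The log2 ratio averaged 0.0288 ± 0.00663 over the Sam-S libraries and 0.0190 ± 0.0132 over the controls (SD, n = 2 each). The difference of 0.0097 did not exceed the SD of the controls (two-sided exact permutation p = 0.667, where 4 libraries allow no p below 0.333). Within batch 1 it was 0.0051 and within batch 2 0.014, and with the batch as a pair the exact p was 0.5, the smallest that 2 pairs allow. The median X peak was thus slightly stronger than the median autosomal peak in all 4 libraries.

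Many folds were taken against a constant background rather than a local one. The caller divides by the larger of a genome-wide background and the local input, and the genome-wide value was 75.1 tags in Sam-S 1, 79.0 in Sam-S 2, 79.0 in control 1 and 87.2 in control 2. The background recomputed at the summits equalled this value, within 0.05 tags, at 433 X regions (55.2%) in Sam-S 1, 440 (52.8%) in Sam-S 2, 557 (54.9%) in control 1 and 68 (33.2%) in control 2. The autosomal shares were 52.4%, 46.9%, 55.2% and 42.4% in the same order. A local background above 2 times the genome-wide value was found at 3, 7, 6 and 4 X regions in Sam-S 1, Sam-S 2, control 1 and control 2. The median tag height at the summits of X regions was 171 in Sam-S 1, 189 in Sam-S 2, 166 in control 1 and 169 in control 2.

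The regions were spread over the whole X, from position 5973 to 23431656. Their density was 43.3 per Mb, against 15.6 on 2L, 18.5 on 2R, 20.9 on 3L and 20.9 on 3R. This was 2.26 times the density of the 4 autosomal arms together, 19.2 per Mb. The regions covered 384 kb, or 1.63% of X. The share of all merged regions that held a control peak was 49.5% on X and 47.0% on the autosomes.

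Along X the density was uneven. When the chromosome was cut into 10 parts of equal length, these held, in the order of its coordinates, 99, 97, 117, 122, 138, 142, 76, 99, 80 and 50 regions. Parts 5 and 6 had 58.6 and 60.3 regions per Mb, and part 10, next to the centromere, had 21.2. By Mb, the fullest stretches were those from 8 to 9 Mb and from 13 to 14 Mb, with 68 regions each. The stretch from 14 to 15 Mb held 30. Matched by coordinate order, each part of X exceeded the same part of all 4 autosomal arms. In part 10 the X value of 21.2 stood against at most 18.5. The parts were not matched by distance from the centromere, and part 1 of 2R, at 24.9 per Mb, exceeded part 10 of X. The share also called in Sam-S 2 stayed between 76.2% and 86.0% over the 10 parts of X, and that in Sam-S 1 between 72.2% and 80.0%.

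**Figure D3:**
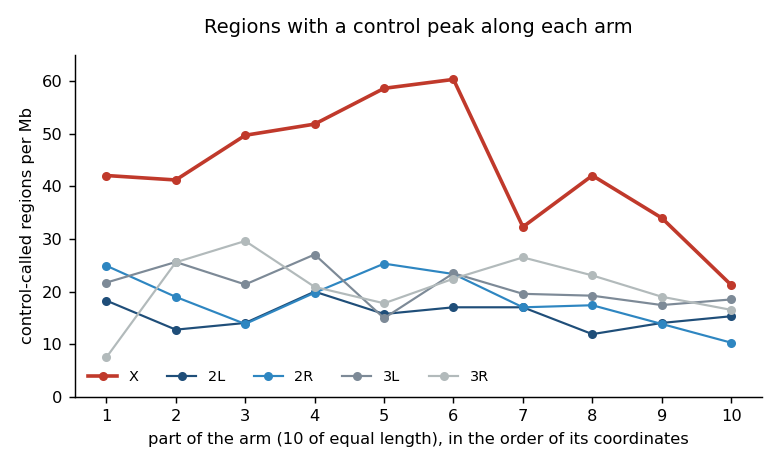
Regions with a control peak per Mb (y axis) in each of 10 equal parts of X and of the 4 autosomal arms (x axis, in coordinate order; lines join the parts of an arm). X lies above the other arms in all 10 parts and runs between 21.2 and 60.3 per Mb.

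Neighbouring regions on X were close together. The gap between neighbours had a median of 10.98 kb, with quartiles of 2.90 and 28.8 kb, against medians of 35.4 kb on 2L, 25.05 kb on 2R, 20.6 kb on 3L and 24.5 kb on 3R. Gaps under 1 kb made up 130 of 1019 on X (12.8%) and 7.81% on the autosomes, and gaps under 5 kb made up 32.5% on X and 21.1% on the autosomes. The median gap divided by the mean gap, which does not depend on density, was 0.485 on X and lay within the 0.436 to 0.556 of the other arms. The longest gap on X was 277 kb, from 21811695 to 22088218.

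The widths of X and autosomal regions were alike. X regions ran from 200 bp, the length to which tags were extended, to 3110 bp, with a median of 319 bp, and the autosomal median was 306 bp. A width over 1 kb was found at 13 X regions (1.27%) and at 1.63% of autosomal regions. Within a region, 996 of the 1020 (97.6%) held no more than 1 peak per library. The summits of the 190 regions called in all libraries fell close together, with a median distance of 15 bp between Sam-S 1 and control 1 and of 23 bp between Sam-S 2 and control 2. Between the control libraries it was 19.5 bp. Regions were formed from peaks that share bases, and the median X peak spanned 254 to 262 bp across the libraries. Short summit distances thus follow in part from the merging, and no distance by chance was computed.

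The 5 widest X regions were called in all 4 libraries, and 4 of them lay in a gene. X 14638782 to 14641891, 3110 bp in NetA, which encodes the guidance cue Netrin-A, had folds of 3.003 in Sam-S 1, 2.65 in Sam-S 2, 2.63 in control 1 and 1.98 in control 2. X 12168637 to 12171366, 2730 bp in the teneurin gene Ten-a, had 2.70, 1.94, 2.73 and 2.27 in the same order, so that control 2 exceeded Sam-S 2 there. X 20959787 to 20962399, 2613 bp outside any gene, had folds of 3.11, 2.48, 2.35 and 2.17. X 13938947 to 13941224, 2278 bp in mamo, a zinc finger gene needed maternally for germ cells, had 2.54, 2.93, 2.52 and 1.87, and was split into 4 peaks in Sam-S 1 and 3 in control 1. X 1554591 to 1556568, 1978 bp in Mur2B, had 2.25, 2.46, 2.01 and 1.54.

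Among regions called in all libraries, the highest mean log2 fold was that of X 12571794 to 12572371, within Pits. Its folds were 4.10 in Sam-S 1, 4.42 in Sam-S 2, 3.85 in control 1 and 2.92 in control 2. The Sam-S and control values did not overlap, and Pits had the highest X fold in each of the 4 libraries. X 18110617 to 18111148, within wupA, the gene of the muscle protein troponin I, had folds of 3.63 in Sam-S 1, 3.78 in Sam-S 2, 3.02 in control 1 and 2.41 in control 2, again without overlap.

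At X 11830659 to 11831695, within rudhira, the folds were 2.93 in Sam-S 1, 3.74 in Sam-S 2, 3.15 in control 1 and 2.54 in control 2. Sam-S 1 lay below control 1 there, so the genotypes overlapped. X 840102 to 840619, within CG43867, was the strongest where control 1 led, with 3.31 in Sam-S 1, 3.36 in Sam-S 2, 3.43 in control 1 and 2.12 in control 2.

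A further 5 of the strongest regions lay within Sh, wcy, dnc, CG15040 and CG4829, with folds of 3.22 to 3.55 in Sam-S 1, 3.02 to 3.77 in Sam-S 2, 2.84 to 3.09 in control 1 and 2.13 to 2.48 in control 2. In all 5 both Sam-S values were above both control values. The same held at 66.3% of the X regions called in all libraries and at 65.3% of such regions in the series. The ranking itself used the Sam-S folds, so nothing further is read from the lack of overlap. Each of the 9 regions given here lay in a gene, and control 2 had the lowest fold in all 9.

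**Figure D4:**
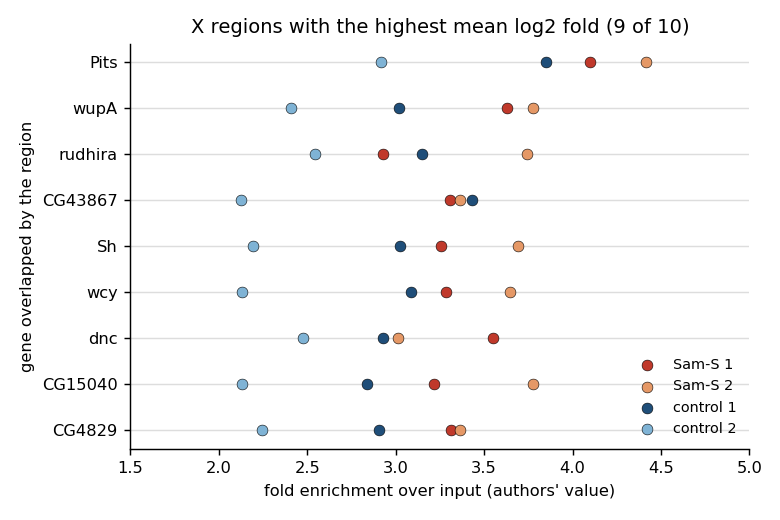
Fold enrichment over input (x axis, authors' value) in each library at 9 of the 10 X regions with the highest mean log2 fold, named by the gene they overlap (y axis). Control 2 is the lowest point in every row, and in the CG43867 row control 1, at 3.43, is the highest.

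The share of X regions in genes was above the share of X that genes span. The midpoint was in a gene for 856 of 1020 regions (83.9%, 95% Wilson interval 81.5 to 86.0%), while genes span 74.5% of X. The autosomal share was 74.4% of regions, with genes spanning 68.2% of the arms. Regions moved along X by 5 kb in either direction still lay in a gene at 80.6% and 81.3%, and by 50 kb at 77.1% and 79.5%. Genes that held a region had a median length of 18.6 kb, so a shift of 5 kb often stays in the same gene. That shift therefore cannot separate the genes from their surroundings. Inside genes there were 48.8 regions per Mb and outside 27.3. Exons, introns and promoters were not analysed here.

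A small number of genes held many of the regions. Of 2700 X genes, 372 (13.8%) held the midpoint of a region, and 50 held 5 or more, together 384 of the 1020 regions. The holders were long, with a median length of 18.6 kb against 1.72 kb for genes that held none. Of 136 genes of 30 kb or more, 122 (89.7%) held a region, and of 960 genes between 1 and 3 kb, 20 (2.08%) did. Per Mb of gene, the genes under 1 kb held 31.6 regions, those of 1 to 3 kb 12.1, those of 3 to 10 kb 35.9, those of 10 to 30 kb 58.5 and those of 30 kb or more 55.4. The density therefore differed between length classes without rising steadily with length, and the genes under 1 kb rested on 13 regions.

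**Figure D5:**
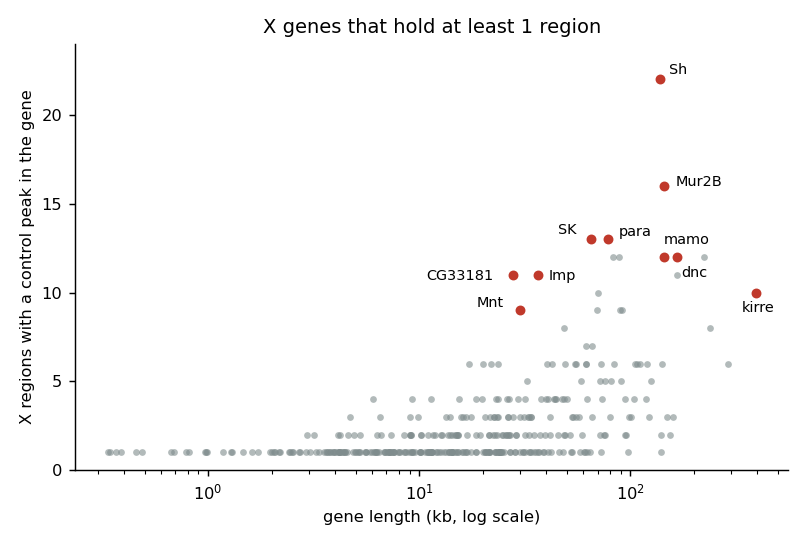
Number of X regions with a control peak in a gene (y axis) against the length of the gene (x axis, kb, log scale), for the 372 genes that hold at least 1; the genes in red are labelled. Sh holds the most, 22, and CG33181, Imp and Mnt hold 9 to 11 in under 40 kb.

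The most regions lay in Sh, the Shaker potassium channel gene, which held 22 regions in 138.9 kb, of which 17 had a peak in Sam-S 1, 17 in Sam-S 2, 22 in control 1 and 5 in control 2. SK, a calcium-activated potassium channel gene, held 13 regions, with peaks at 11, 10, 13 and 1 in that order. The voltage-gated sodium channel gene para also held 13, with peaks at 10, 13, 13 and 2. Ca-alpha1T, a T-type calcium channel gene, held 12, with peaks at 12, 10, 12 and 2. Nearly all these regions came from control 1 and few from control 2, as on the whole X.

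The second highest count was that of Mur2B, which held 16 regions, and 9 of them were called in all 4 libraries, more than in Sh (4). Mur2B overlaps br, the ecdysone-response gene Broad, which held 9. The phosphodiesterase gene dnc held 12 regions, with peaks at 5 in Sam-S 1 and 7 in Sam-S 2, against 12 in control 1 and 3 in control 2. At dnc the Sam-S peaks were thus fewer than at the other genes with 12 or more regions. Over all 1020 regions the shares were 76.9% in Sam-S 1 and 81.7% in Sam-S 2. Over all regions of the series with a control peak they were 73.3% and 80.8%. The regions of a gene are not replicates, and the difference at dnc was not tested. X11Lbeta held 12, with peaks at 10 and 9 in the Sam-S libraries and at 12 and 0 in the controls. mamo held 12, with peaks at 10 and 11 in the Sam-S libraries and at 12 and 3 in the controls. The long noncoding lncRNA:CR32773 held 12, and so did CG15465 and rg, which share their span and therefore their regions; rg encodes an anchor of protein kinase A.

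Some shorter genes were filled more densely. CG33181 held 11 regions in 27.7 kb, or 3.97 per 10 kb, and they were weak, with median folds of 1.72 in Sam-S 1, 1.89 in Sam-S 2, 1.52 in control 1 and 1.54 in control 2. Sam-S 1 had a peak at 4 of these 11, Sam-S 2 at 5, control 1 at 10 and control 2 at 2. Imp, whose product binds localised mRNAs in the oocyte, held 11 regions in 36.4 kb, with peaks at 6 in Sam-S 1, 11 in Sam-S 2, 11 in control 1 and 1 in control 2. Mnt, the gene of a Max-binding repressor, held 9 in 29.9 kb, with peaks at 8, 9, 9 and 0. The shares over all 1020 regions were 76.9% in Sam-S 1, 81.7% in Sam-S 2, 99.4% in control 1 and 20.1% in control 2. Among all regions of the series with a control peak, Sam-S 1 had a peak at 73.3% and Sam-S 2 at 80.8%. These 3 genes were chosen after their values were seen, and their departures from these shares were not tested.

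Some regions lay in runs. When neighbours less than 5 kb apart were joined, 70 runs of 3 or more regions held 276 of the 1020 (27.1%). With neighbours less than 2 kb apart there were 37 such runs with 131 regions (12.8%), and the longest had 6. The longest at 5 kb had 9 regions each. X 17924362 to 17934720 lay within Sh, with peaks at 7 of its regions in Sam-S 1, 8 in Sam-S 2, 9 in control 1 and 2 in control 2. X 12643574 to 12660876 spanned Tomosyn, a regulator of vesicle release, CkIalpha, Tis11 and lncRNA:CR33963, with peaks at 8, 8, 9 and 2. In para a run of 8 regions, X 16458803 to 16477550, had peaks at 5, 8, 8 and 1. The distances were chosen after the data were seen.

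Gene lists by function differed in how many of their genes were hit, and so did the lengths of their genes. Of all 2700 X genes, 18.4% had a region in them or within 1 kb. Of 19 neuronal signalling and synapse genes found in the gene table, 16 did (84.2%), with a median gene length of 53.8 kb and a median of 5 regions each. Beside the genes above they were shakB, a gap junction gene (11 regions), kirre, a cell adhesion gene (10), norpA, a phospholipase C gene (6), sdt (6), Neto, a glutamate receptor auxiliary subunit gene (5), Nrg, the neuroglian gene (4), cac, a calcium channel gene (3), rdgA, a diacylglycerol kinase gene (3), rst (2), rut, an adenylyl cyclase gene (1), and nAChRalpha7 (1). Tomosyn and Ten-a held 6 each, and Syt12, beta-Spec and per held 0. Counted by a midpoint in the gene, the share in this list was also 84.2%. This was below the 89.7% of all genes of 30 kb or more, counted the same way. The list also holds shorter genes, such as Tomosyn at 21.8 kb.

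Of 21 oogenesis and germline genes, 6 had a region (28.6%, beside 18.4% of all X genes), with a median gene length of 6.93 kb. They were br, Sxl, the sex determination switch that also acts in the germline, with 4 regions, ovo, a transcription factor gene of the female germline, with 3, N, the Notch receptor gene, with 2, sgg, the GSK3 kinase gene, with 2, and arm, the beta-catenin gene, with 1. The other 15, among them otu, snf, dhd and mei-9, had none within 1 kb. Of 9 eggshell and yolk genes (Cp36, Cp38, Cp7Fa, Cp7Fb, Cp7Fc, Yp1, Yp2, Yp3 and dec-1), 0 had a region, with a median length of 1.69 kb, and of all X genes of 1 to 3 kb 2.08% held one.

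Of 4 dosage compensation genes, only Sxl was hit, and roX1, roX2 and mof, which act in the male complex, were not. The 12 genes of classical X markers had a median length of 9.3 kb, against 2.06 kb for all X genes. Of these 12, 4 had a region (33.3%, beside 18.4% of all X genes). They were ct, the Cut transcription factor gene, with 10 regions, Bx with 3, g with 2 and f with 1, while w, y, v, m, car, sd, B-H1 and B-H2 had none. The lists were not compared by a test.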

How the data were processed

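Ovarian DNA was immunoprecipitated with a 6mA antibody in 4 libraries (2 Sam-S, 2 control), and 4 inputs enter through the authors' peak calling. Bowtie2 is named in the submitters' processing notes, and header paths name unique alignments. Per the file headers, the authors called peaks with MACS version 2.1.1.20160309, in each library against its own input, with tags extended to 200 bp, an effective genome size of 120 Mb, 1 tag per position and a q cutoff of 0.05. The smaller library was scaled to the larger. The deposited lists give pileup signal, fold enrichment as a ratio, and −log10 of p and q. The genome build is not given in the sources used here. Coordinates are 1-based as deposited. Depth per immunoprecipitated library was 39591292 to 49800736 tags.

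Peaks were merged into regions, a step tested on simulated data. Where a region held several peaks of a library, the highest fold was taken. Genes came from RefSeq (Release 6 plus ISO1 MT), assigned by the region's midpoint, and their coordinates are not printed. The share of X regions in a gene was 83.9%, and at most 81.3% after shifts by 5, 10 or 50 kb. Genes that held a region had a median length of 18.6 kb, so short shifts often stay inside a gene. So small a drop cannot settle whether the table fits the build of the lists. No genome sequence was used, so no sequence is shown. Transposon lists were not used. The replicate number is the batch in the labels, which pairs the libraries. The test was a two-sided exact permutation test over the 6 assignments of 4 libraries. Whether libraries came from separate animals is not stated, so p-values measure the spread between these libraries. Named regions are the 10 with the highest mean log2 fold (1 is not reported here), the 5 widest and the 5 least significant; named genes are the 10 with the most regions, those at named regions and those of the lists. Regions, lists and rules were chosen with earlier results of these data known. Calculations ran in Python 3.11.15 with pandas 2.3.3 and scipy 1.17.1 and numpy 2.4.6; figures were drawn with matplotlib 3.10.9.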

Additional observations from a re-analysis of the deposited data

How the results depend on the processing

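Regions numbered 423 at folds of at least 2, 330 with the 683 most significant peaks per library and 199 with a peak in both controls, against 1020; leaving out a library gave 205 (without control 1) to 1028. The share also called in Sam-S, 79.3%, was 86.1% at folds of at least 2, 57.1% with equal peak numbers and 97.7% with both controls, and 76.9 to 96.6% without a library. X minus autosomes in this share, -1.27 points, was 0.24 at folds of at least 2, 1.79 with equal peak numbers, -2.40 against 3L and 3R and -2.20 without the outer 10% of arms, and -1.66 to -0.55 without a library. The density ratio, 2.26, was 2.78, 2.76 and 2.62 at folds of at least 2, with equal peak numbers and with both controls, and 2.26 to 2.62 without a library. The ratio of median gaps, 0.431, was 0.354, 0.357 and 0.318 under those 3 settings, and 0.338 to 0.434 without a library. For these moves the cause was not tested, beyond the smaller number of peaks that the cutoffs keep. The median width moved to 448 bp with both controls and 433 bp without control 1, and the share in genes lay between 83.5 and 86.3%.

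The log2 difference in fold at X regions shared by all libraries, 0.31, ran from 0.13 without control 2 to 0.48 without control 1. It was 0.28 without Sam-S 2 and 0.32 without Sam-S 1, and lay between 0.30 and 0.36 with all 4 libraries. The log2 ratio of X to autosomal peaks kept its sign in all settings, from 0.00038 without control 2 to 0.023 with mean log2 folds. With the replicate block, which pairs the libraries of a batch, both values stayed at 0.31 and 0.0097 by construction, and no call changed. Peak number did not follow depth: control 2, with the most tags, had 215 X peaks, and Sam-S 2, with the fewest, had 1654. No setting varied the depth.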

Other observations

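Control 2 held a peak without control 1 at 6 X regions, all weak. X 13805466 to 13805846, within inaE, had folds of 1.36 in Sam-S 1, 1.71 in Sam-S 2 and 1.72 in control 2. X 13468668 to 13469186, within Neto, had 1.48, 1.65 and 1.56 in the same libraries, and X 575882 to 576313, within Appl, the fly gene of the amyloid precursor protein family, had 1.88, 1.67 and 1.39. X 23431350 to 23431656, near the centromere end and outside any gene, had 1.35 in Sam-S 2 and 1.32 in control 2. X 8446280 to 8446496, outside any gene, and X 8504398 to 8504674, within CG33181, were called in control 2 alone, with folds of 1.66 and 1.49. The regions were listed after their values were seen.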
